A study of Mus musculus with 4 samples.

Results

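The genes described here encode the enzymes of glycolysis and of the pentose phosphate pathway, with the transporters that bring glucose into the cell and carry lactate across its membrane. They were chosen by name from a list of 37 genes, of the 23234 genes with a level in the deposited table. For 36 of them the table holds a row of their own. The last, Eno1, is listed in a row shared with the predicted gene Gm5506, and that shared row was used for it. The cells, mouse extensively self-renewing erythroblasts, are red cell precursors that divide in culture. All of them carried a short hairpin RNA (shRNA), and the labels name 4 groups of 1 sample each. The groups used were a non-targeting shRNA in proliferating cells (control), an shRNA against the histone methyltransferase Setd8 in proliferating cells (knockdown), and the non-targeting shRNA in cells kept in maturation medium for 6 h (maturing control). Cells with the Setd8 shRNA in maturation medium were not analysed here. The labels do not say how many hairpins or cultures stand behind a sample, nor the strain or the age of the mice.

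Glycolysis splits a glucose molecule into pyruvate and yields ATP without oxygen. Mature red cells have no mitochondria and depend on it, and a side path at the bisphosphoglycerate step makes the compound that lowers the oxygen affinity of haemoglobin. The pentose phosphate pathway branches off at glucose 6-phosphate. Its oxidative arm makes NADPH, which protects red cells against oxidants, and its non-oxidative arm makes ribose 5-phosphate for nucleotides and returns carbon to glycolysis. Several steps are carried out by isozymes from different genes, and red cells use their own form of pyruvate kinase, which comes from the Pklr gene.

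Setd8 itself was at 25.1 FPKM (fragments per kilobase, corrected for library size) in the control, 9.28 in the knockdown and 25.9 in the maturing control, and it was called lower in the knockdown (log2 ratio -1.43, q 0.0122) in the authors' deposited table. Of 14 erythroid markers, 13, 12 and 14 reached 1 FPKM in these libraries. Markers of other lineages moved too. Of 10 mast cell and basophil markers tested, 8 had a higher call for the knockdown in the authors' deposited table. Of all genes tested, 5.81% were called higher and 3.24% lower. The summed level of the 11 mast cell and basophil markers listed was 71.0, 501.5 and 38.1 FPKM in control, knockdown and maturing control. Mcpt8 was listed at 0 in the control, and no other marker on that list was at 0. The summed level of 7 megakaryocyte markers was 34.1, 59.0 and 13.9 FPKM, and 3 of the 5 tested were called higher in the knockdown. The 9 granulocyte and macrophage markers summed to 1.23 to 1.51 FPKM, with 0 of 2 tested called. The 6 lymphocyte markers summed to 0.217 to 2.40 FPKM, with 1 of 2 tested called lower. The part of these cells in the results below was not tested. A lower share of one kind of cell and less RNA per cell cannot be told apart in such bulk libraries. Since each group is 1 library, differences could not be checked against replicates. The calls are those of the authors' deposited table, at an adjusted p (q) of at most 0.05, and standard errors (SE) are those of the authors' model.

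Most enzymes of both pathways were abundant. Of the 37 genes, 33 reached 1 FPKM in at least 1 of the 3 libraries, 22 were at 5 FPKM or more in all 3, and 8 (Aldoa, Tpi1, Gapdh, Pgam1, Pkm2, Ldha, Tkt and Taldo1) were at 50 FPKM or more in all 3. The transaldolase gene Taldo1 ranked 159th of 23234 genes in the control, the aldolase gene Aldoa 161st and the lactate dehydrogenase gene Ldha 168th. Together the 37 genes summed to 1372 FPKM in the control, 1313 in the knockdown and 1146 in the maturing control, or 0.778%, 0.772% and 0.646% of all FPKM. The genes lie on 15 chromosomes. On chromosome 6, Eno2, Tpi1 and Gapdh stand within 405529 bases of each other (124710072 to 125115601, mm9).

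**Figure D1:**
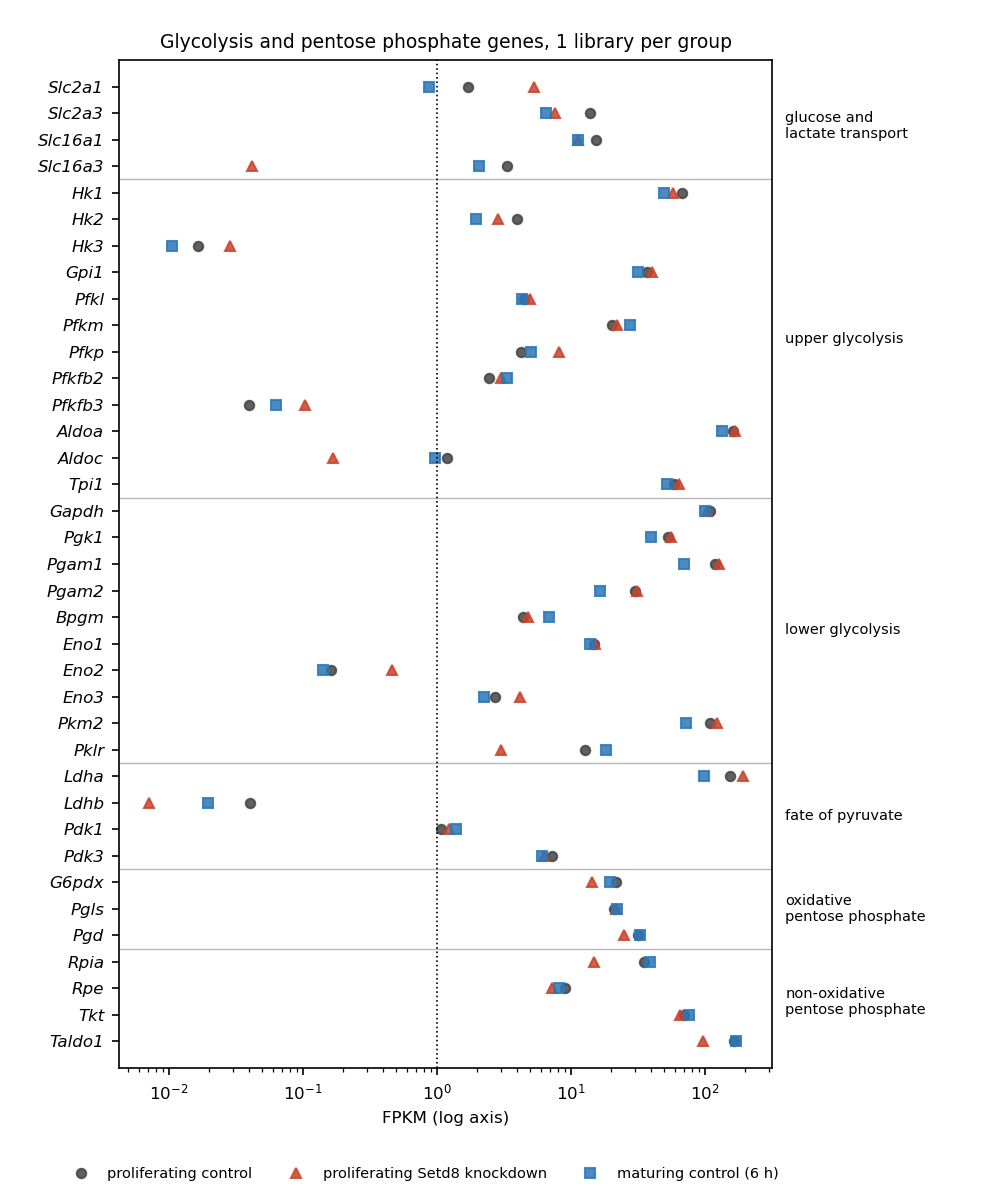
FPKM (log axis) of the 37 genes in 3 libraries, 1 per group, ordered by role; the dotted line marks 1 FPKM and Eno1 is its shared row. Slc16a3, Aldoc, Pklr, Rpia and Slc2a1 are the genes called in the knockdown. In the maturing control, 22 of the 33 measured genes are below the control.

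In the proliferating knockdown, 1 gene of the 37 was called higher and 4 were called lower than in the proliferating control. The glucose transporter gene Slc2a1 rose, and the lactate transporter gene Slc16a3, the aldolase gene Aldoc, the red cell pyruvate kinase gene Pklr and the ribose 5-phosphate isomerase gene Rpia fell. Those 5 calls came from 35 tested genes (14.3%), against 9.05% of the 11665 genes tested in all, of which 5.81% were called higher and 3.24% lower. Among the tested genes that reached 1 FPKM in a library, as all 5 did, 6.03% were called, 3.89% higher and 2.15% lower. At an unadjusted p below 0.05 a further 4 genes passed (Slc2a3, Pfkfb3, Eno2 and Taldo1), making 9 of 35, against 14.7% of all genes tested. The median log2 ratio of FPKM + 1 over the 33 measured members was 0.04, and over all 9612 measured genes it was -0.05. Of the 33, 18 had a higher and 15 a lower value in the knockdown, where 55.6% of all measured genes had a lower one, and 4 differed by 2-fold or more, against 6.98% of all measured genes. By role, values were above the control for 7 of 10 measured genes of upper and 7 of 9 of lower glycolysis (group medians 0.11 and 0.07), and below it for 3 of 4 transporter genes and all 4 non-oxidative pentose phosphate genes (-0.61 and -0.53). The median SE of the deposited log2 ratio was 0.47 among the tested members. Where both libraries held at least 5 FPKM, the smallest size called for any gene was 1.18 on the log2 scale, so changes well under 2-fold could not be called in these data.

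The sequences before the start sites of the 5 called genes are shown because these genes differed between the libraries while the enzymes around them were not called. They are the 250 bases before each RefSeq start (GRCm38.p6, not the mm9 build of the deposited table), 5′ to 3′ on the gene's strand. Capitals mark matches, on either strand, to the motifs searched: the E-box CACGTG, the hypoxia-factor cores ACGTG and GCGTG, the GATA cores AGATAA and TGATAA, the GC box GGGCGG and the CACCC box CCACACCC. ACGTG also lies inside the E-box. Pklr and Aldoc have 2 starts each, those of Pklr 481 bases apart. The upstream start of Pklr is, as background, that of the red cell form and the downstream one that of the liver form.
Pklr upstream start, chr3:89135892-89136141, + strand: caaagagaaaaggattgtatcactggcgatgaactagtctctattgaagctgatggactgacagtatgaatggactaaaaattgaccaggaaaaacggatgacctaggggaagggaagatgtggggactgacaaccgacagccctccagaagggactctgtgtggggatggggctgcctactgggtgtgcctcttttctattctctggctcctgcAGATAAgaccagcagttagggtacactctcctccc
Pklr downstream start, chr3:89136373-89136622, + strand: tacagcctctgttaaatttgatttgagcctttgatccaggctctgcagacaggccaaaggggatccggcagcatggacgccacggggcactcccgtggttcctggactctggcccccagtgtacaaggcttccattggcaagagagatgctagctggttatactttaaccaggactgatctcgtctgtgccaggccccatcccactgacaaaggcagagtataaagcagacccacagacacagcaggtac
Slc2a1, chr4:119108495-119108744, + strand: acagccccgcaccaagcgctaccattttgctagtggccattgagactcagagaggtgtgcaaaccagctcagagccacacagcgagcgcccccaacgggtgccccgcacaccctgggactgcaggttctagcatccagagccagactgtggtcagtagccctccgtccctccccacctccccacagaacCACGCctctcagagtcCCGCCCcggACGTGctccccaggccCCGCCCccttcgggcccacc
Slc16a3, chr11:120948817-120949066, + strand: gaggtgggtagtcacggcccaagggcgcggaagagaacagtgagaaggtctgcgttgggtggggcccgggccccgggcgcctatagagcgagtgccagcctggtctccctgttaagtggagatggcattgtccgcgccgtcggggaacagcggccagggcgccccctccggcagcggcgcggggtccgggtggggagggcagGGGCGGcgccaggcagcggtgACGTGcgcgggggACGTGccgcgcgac
Rpia, chr6:70792176-70792425, - strand: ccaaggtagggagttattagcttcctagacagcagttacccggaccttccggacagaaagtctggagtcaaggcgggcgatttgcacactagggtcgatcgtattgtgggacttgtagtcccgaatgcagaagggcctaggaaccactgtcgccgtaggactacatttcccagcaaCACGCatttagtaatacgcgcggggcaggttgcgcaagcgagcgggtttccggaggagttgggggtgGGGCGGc
Aldoc upstream start, chr11:78322823-78323072, + strand: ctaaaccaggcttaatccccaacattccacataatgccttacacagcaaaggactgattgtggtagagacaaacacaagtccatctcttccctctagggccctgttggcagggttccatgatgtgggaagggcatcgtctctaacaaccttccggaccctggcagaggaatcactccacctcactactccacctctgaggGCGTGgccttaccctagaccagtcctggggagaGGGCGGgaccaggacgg
Aldoc downstream start, chr11:78323948-78324197, + strand: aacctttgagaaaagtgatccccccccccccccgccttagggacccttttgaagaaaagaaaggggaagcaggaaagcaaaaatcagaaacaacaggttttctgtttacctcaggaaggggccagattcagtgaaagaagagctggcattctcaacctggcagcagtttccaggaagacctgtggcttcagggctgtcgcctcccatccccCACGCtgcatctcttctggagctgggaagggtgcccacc

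The upstream Pklr window held 1 match, the GATA core AGATAA at 35 to 30 bases before the start, and the downstream window held none of the motifs. Slc2a1 held ACGTG at 36 to 32 bases before the start, GCGTG on the reverse strand at 61 to 57, and GC boxes on the reverse strand at 45 to 40 and at 20 to 15. In Slc16a3 ACGTG stood at 27 to 23 and at 14 to 10 bases before the start, and a GC box at 48 to 43. Rpia held GCGTG on the reverse strand at 74 to 70 and a GC box at 7 to 2. The upstream Aldoc window held GCGTG at 50 to 46 and a GC box at 17 to 12, and the downstream one GCGTG on the reverse strand at 39 to 35. RefSeq windows were found for 36 of the 37 genes, Slc2a3 being the other, with 53 windows that overlap where starts are close. ACGTG was in 34.0% of them, against 16.6% of all 32851 windows and 22.9% of the 8612 windows of genes measured in these libraries. For GCGTG the shares were 52.8%, 28.2% and 46.9%, for the E-box 9.43%, 6.02% and 8.93%, and for the GC box 52.8%, 32.7% and 59.3%. Either GATA core was in 15.1%, 16.6% and 9.29%, and the CACCC box in 7.55%, 3.20% and 3.39%. A match is only a run of letters, and binding was not measured here.

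Glucose enters through transporters of the Slc2a family, and 2 of them are among the members. Slc2a1, which encodes the widely expressed transporter GLUT1 (chromosome 4, 118781349 to 118809934, mm9), was at 1.73 FPKM in the control, 5.36 in the knockdown and 0.878 in the maturing control. The knockdown library was the high one, at 3.10 times the control. In the authors' deposited table Slc2a1 had a log2 ratio of 1.63 (SE 0.53) and a q of 0.0317. Slc2a3, which encodes the high-affinity transporter GLUT3, was at 14.05, 7.68 and 6.55 FPKM, highest in the control. The authors' deposited table listed it with a log2 ratio of -0.87 (SE 0.42) and a q of 0.326, not called. Slc2a3 therefore made up 89.1% of the FPKM of the pair in the control, 58.9% in the knockdown and 88.2% in the maturing control. The sum of both was 15.8, 13.04 and 7.43 FPKM.

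Lactate and pyruvate cross the membrane through monocarboxylate transporters. Slc16a3, which encodes the lactate exporter MCT4 of highly glycolytic cells (chromosome 11, 120809797 to 120820314, mm9), was at 3.36 FPKM in the control, 0.0417 in the knockdown and 2.05 in the maturing control. Only the knockdown library was near 0, at 1.24% of the control. The log2 ratio in the authors' deposited table was -6.33 (SE 0.71), with a q listed at 0. The family member Slc16a1, which encodes MCT1, was at 15.5, 11.2 and 11.3 FPKM and was not called, with a log2 ratio of -0.47 (SE 0.41) in the authors' deposited table. MCT1 thus held 82.2% of the FPKM of the pair in the control, 99.6% in the knockdown and 84.6% in the maturing control.

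In upper glycolysis, which takes glucose to triose phosphates, Aldoc was the 1 gene called in the knockdown of 11 tested, a share near the 9.05% of all genes tested. The other 10 had values between 71.7% (Hk2) and 261% (Pfkfb3) of the control. Hexokinase, which traps glucose as glucose 6-phosphate, was mainly Hk1, at 67.4, 58.4 and 49.4 FPKM in control, knockdown and maturing control. Hk2 was at 4.0, 2.87 and 1.96 FPKM, and Hk3 stayed below 0.03 FPKM and was not tested. Another hexokinase gene, Hkdc1, is outside the 37 and was at 3.76, 4.58 and 2.59 FPKM, not called in the knockdown. The isomerase gene Gpi1 was at 37.2, 40.7 and 32.0 FPKM. Phosphofructokinase, the committed and regulated step, was encoded mostly by the muscle-type gene Pfkm, at 20.3, 22.3 and 27.9 FPKM. Its liver-type form Pfkl was at 4.47, 4.95 and 4.34 FPKM. The platelet-type form Pfkp was at 4.22, 8.17 and 5.04 FPKM, the highest value in the knockdown, with a log2 ratio of 0.95 and a wide SE of 0.88 in the authors' deposited table. It supplied 14.6% of phosphofructokinase FPKM in the control and 23.0% in the knockdown. Pfkfb2 and Pfkfb3 encode enzymes that make and remove the activator of phosphofructokinase. Pfkfb2 was at 2.47, 3.01 and 3.34 FPKM, and Pfkfb3 at 0.0396, 0.103 and 0.0635 FPKM. Their relative Pfkfb4, which is outside the 37 genes, was at 0.0749, 2.01 and 0.0892 FPKM, so the pair does not hold the whole step.

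Aldolase, which cleaves the hexose, came almost wholly from Aldoa, at 163, 169 and 134 FPKM. Aldoc, the form best known from brain (chromosome 11, 78137699 to 78140262, mm9), was at 1.18, 0.170 and 0.974 FPKM, so the knockdown library was low. In the authors' deposited table Aldoc had a log2 ratio of -2.81 (SE 0.57) and a q of 2.76e-05. Because Aldoa outweighed it 137 to 1 in the control, aldolase summed to 164, 169 and 135 FPKM. Triose phosphate isomerase (Tpi1) was at 59.1, 63.8 and 52.0 FPKM, and it was not called.

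In lower glycolysis, which earns the ATP, Pklr was the 1 gene of 10 tested that was called in the knockdown, again a share near 9.05%. Pklr (chromosome 3, 88940063 to 88950516, mm9) was at 12.8 FPKM in the control, 2.999 in the knockdown and 18.3 in the maturing control. The knockdown was the low library and the maturing control the high one. The knockdown library was at 23.5% of the control level, and the log2 ratio was -2.09 (SE 0.52) with a q of 0.00157 in the authors' deposited table. The other pyruvate kinase gene, listed as Pkm2 (now Pkm), was at 109.6 FPKM in the control, 125 in the knockdown and 72.4 in the maturing control. Its row does not separate the M1 and M2 splice forms. Pklr made up 10.4% of pyruvate kinase FPKM in the control, 2.35% in the knockdown and 20.2% in the maturing control, and the sum of both genes was 122, 128 and 90.7 FPKM. Beside this, 3 of the 14 erythroid markers (Alas2 and a pair of globin rows) were called lower in the knockdown in the authors' deposited table. Of all genes tested, 3.24% were. The list summed to 2204, 918 and 3490 FPKM, most of it from 4 globin rows. Without them it summed to 331, 311 and 401 FPKM, with 7 of 10 markers below and 3 above the control in the knockdown. Its part in the Pklr result was not tested.

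**Figure D2:**
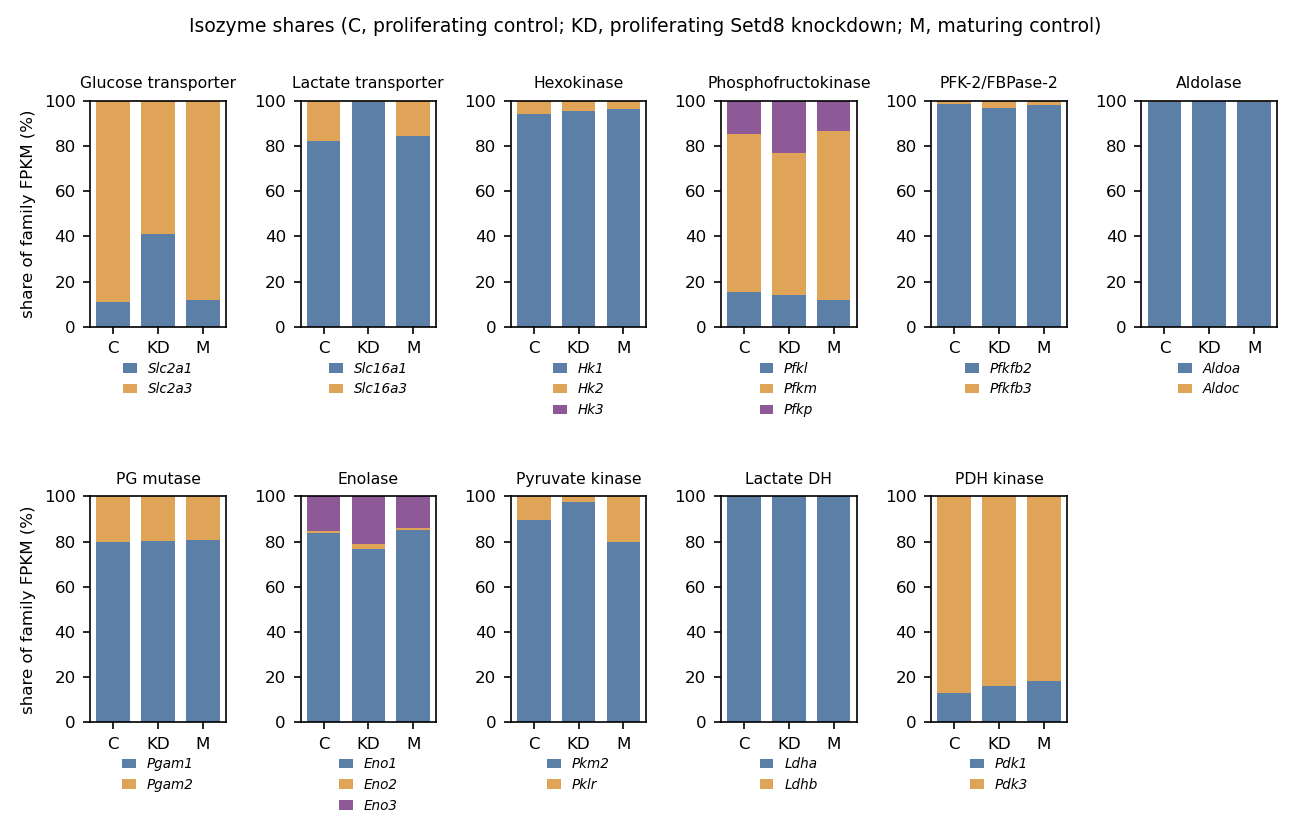
Share (%) of each isozyme in the summed FPKM of its family in 3 libraries, 1 per group: C, proliferating control; KD, proliferating Setd8 knockdown; M, maturing control. Slc2a1 takes 41.1% of its pair in KD against 10.9% in C, Slc16a3 nearly vanishes in KD, and the share of Pklr is 10.4% in C, 2.35% in KD and 20.2% in M. Eno1 is its shared row.

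The remaining genes of lower glycolysis were not called in the knockdown. Gapdh, the glyceraldehyde phosphate dehydrogenase often used as a reference gene, was at 109, 104 and 100.1 FPKM. Its value was below the control in the knockdown as deposited, and above it when libraries were centred on abundant genes. Pgk1, which makes the first ATP of the pathway, was at 53.1, 55.7 and 40.0 FPKM. The mutase genes Pgam1 and Pgam2 were at 119, 128 and 69.8 FPKM and at 30.3, 31.2 and 16.5 FPKM. Their ratio was 3.95, 4.11 and 4.22, and Pgam2 is known as the muscle form. Likewise Pgk2, a copy of Pgk1 known from testis, was listed at 28.3, 28.5 and 20.9 FPKM, with a Pgk1 to Pgk2 ratio of 1.88, 1.96 and 1.91. Such similar copies can share fragments, so the split within each pair is uncertain. Bpgm, which makes 2,3-bisphosphoglycerate, was at 4.42, 4.78 and 6.91 FPKM.

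Enolase came mainly from the row shared by Eno1 and Gm5506, at 14.8, 15.1 and 13.9 FPKM. In the authors' deposited table that row had a log2 ratio of 0.02 in the knockdown with an SE of 2.26, the widest among the tested members, so its stability is poorly measured. Because the row is shared, it does not give the level of Eno1 alone, and the enolase shares and sum carry the same limit. Eno3, the muscle form, was at 2.72, 4.16 and 2.27 FPKM. Eno2, the neuronal form, was at 0.162, 0.463 and 0.143 FPKM, with a log2 ratio of 1.51 (SE 0.54) and a q of 0.0691 in the authors' deposited table. Both were highest in the knockdown, and neither was called against the control.

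At the fate of pyruvate, neither Ldha, Pdk1 nor Pdk3 was called in the knockdown. Lactate dehydrogenase, which regenerates NAD+ by making lactate, came almost wholly from Ldha, at 155 FPKM in the control, 192 in the knockdown and 98.4 in the maturing control. Ldhb was below 0.05 FPKM in all 3 libraries and was not tested. Pdk1 and Pdk3 encode kinases that hold pyruvate dehydrogenase inactive. Pdk1 was at 1.08, 1.23 and 1.40 FPKM, and Pdk3 at 7.27, 6.35 and 6.15 FPKM.

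In the pentose phosphate pathway, 6 of 7 genes had a lower value in the knockdown, where 55.6% of all measured genes did. Of the 7, 1 gene, Rpia, was called, beside 9.05% of all genes tested. The direction of each of the 7 was the same under each of the 4 other scalings tried. Rpia (chromosome 6, 70715713 to 70742169, mm9), which turns ribulose 5-phosphate into the ribose 5-phosphate of nucleotides, was at 35.2 FPKM in the control, 14.9 in the knockdown and 39.0 in the maturing control. The knockdown was the low library, at 42.2% of the control. A log2 ratio of -1.24 (SE 0.43) stood in the authors' deposited table, and its q of 0.0482 was close to the limit of 0.05. The call was lost (q 0.0596) when the deposited p-values were adjusted over the 9349 tested genes at 1 FPKM or more in either library. Taldo1, the transaldolase gene, was at 165, 96.9 and 170.5 FPKM, also low in the knockdown library. Its log2 ratio of -0.77 (SE 0.38) had a q of 0.354 in the authors' deposited table, which did not call it. Transketolase (Tkt), its partner in moving carbon back to glycolysis, was at 69.7, 65.2 and 76.2 FPKM, and the epimerase gene Rpe at 9.07, 7.21 and 8.21 FPKM. The 4 non-oxidative genes summed to 279 FPKM in the control, 184 in the knockdown and 294 in the maturing control.

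The oxidative arm had no call in the knockdown. G6pdx, the X-linked glucose 6-phosphate dehydrogenase whose loss in humans makes red cells fragile, was at 21.9 FPKM in the control, 14.5 in the knockdown and 19.5 in the maturing control. Its log2 ratio in the authors' deposited table was -0.59 (SE 0.49). Pgd, the second enzyme that makes NADPH, was at 31.8, 24.8 and 32.9 FPKM. Pgls, the lactonase between them, was at 21.0, 21.6 and 22.2 FPKM and was the 1 pentose phosphate gene with a higher value in the knockdown. The arm summed to 74.6, 60.9 and 74.7 FPKM.

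**Figure D3:**
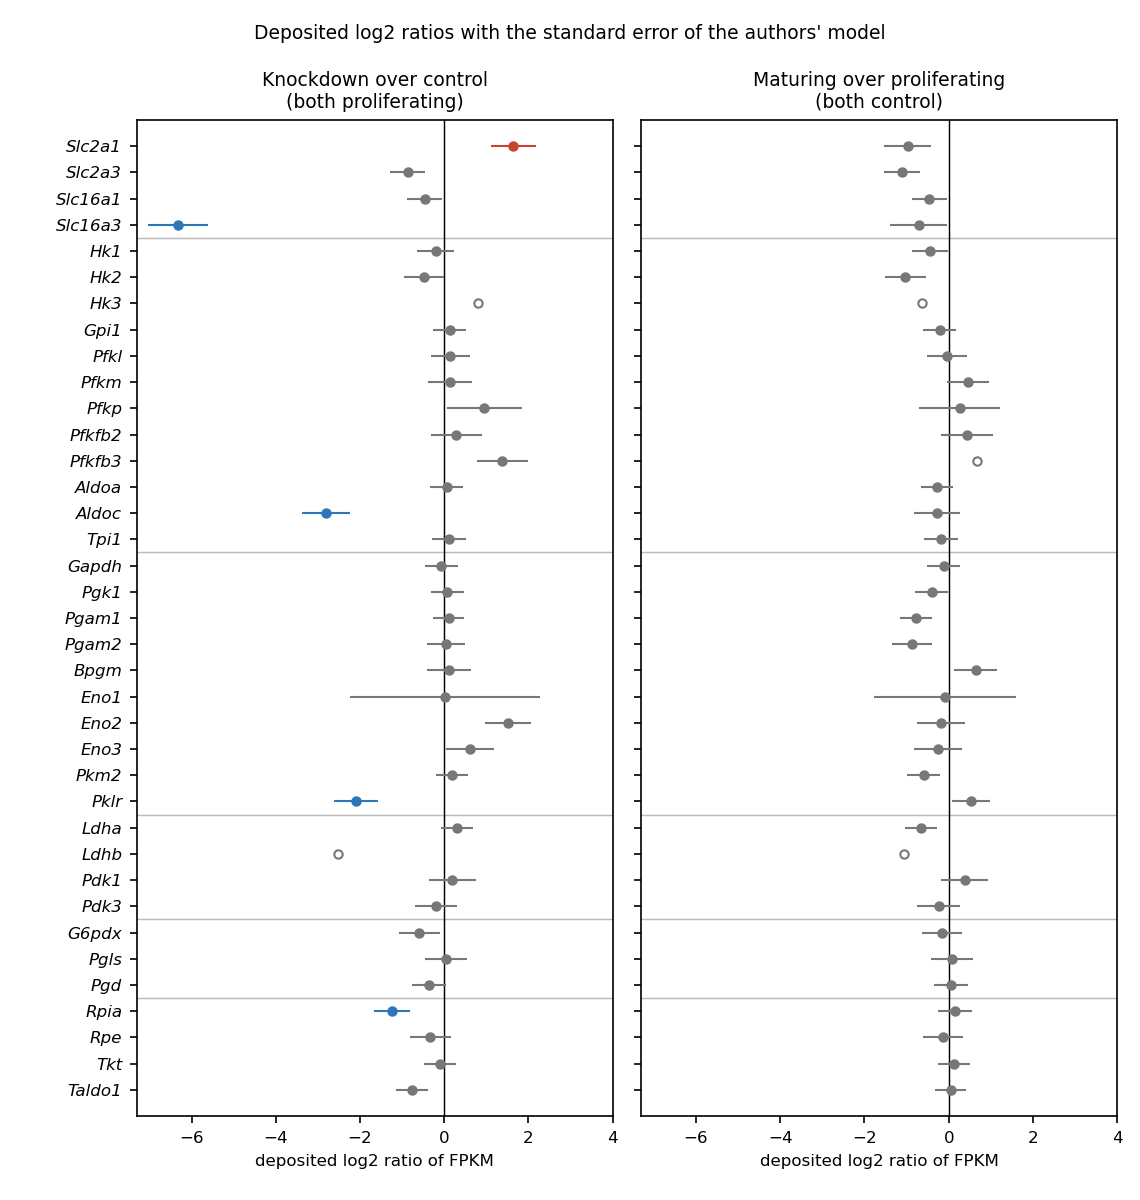
Deposited log2 ratio of FPKM for each gene, knockdown over control (left) and maturing over proliferating control (right); bars are 1 SE of the authors' model, red and blue mark genes called higher and lower, grey genes were not called, and open circles were not tested. The 5 calls are all on the left, and the bars of most other genes reach or nearly reach 0.

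After 6 h in maturation medium, no gene of the 37 was called in the authors' deposited table, in which 1.75% of the 11298 genes tested were called, 0.584% higher and 1.17% lower. Cuffdiff was the tool named for that table, and 34 of the 37 genes were tested. At an unadjusted p below 0.05, 3 of the 34 passed, all with lower values, against 4.90% of all genes tested. These were Slc2a3, with a log2 ratio of -1.10 (SE 0.43) and a q of 0.116, Hk2, with -1.03 (SE 0.48) and a q of 0.288, and Pgam1, with -0.78 (SE 0.38) and a q of 0.344, all in the authors' deposited table. No member differed by 2-fold or more on the FPKM + 1 scale, against 1.67% of all measured genes.

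Most glycolytic genes nevertheless had lower values in the maturing control. Of the 33 measured genes, 22 were lower and 11 higher, a share of 66.7% lower against 47.3% of all measured genes. The median log2 ratio of FPKM + 1 was -0.16 over the members and 0.01 over all measured genes. All 4 transporter genes, 7 of 10 genes of upper glycolysis and 7 of 9 of lower glycolysis were lower. Levels were also summed by step, over the members alone. Glucose transporters stood at 47.1% of the control level, phosphoglycerate mutase at 57.7% and lactate dehydrogenase at 63.5%. Lactate transporters stood at 70.7%, hexokinase at 71.9% and pyruvate kinase at 74.1%. The other steps with a lower sum, outside the pentose phosphate pathway, lay between 75.3% (phosphoglycerate kinase) and 92.3% (enolase). Higher values were held by Bpgm, at 156% of the control with a log2 ratio of 0.65 (SE 0.51) in the authors' deposited table, by Pklr, at 144%, by the Pfkfb2 and Pfkfb3 step, at 136%, by Pdk1, at 129.8%, and by phosphofructokinase, at 128% summed over its 3 genes. The pentose phosphate genes held near their control levels. They ranged from 89.1% for G6pdx to 111% for Rpia, and 5 of the 7 were higher. None of these differences was called singly, and the direction of each group's median was the same under the 4 other scalings.

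**Figure D4:**
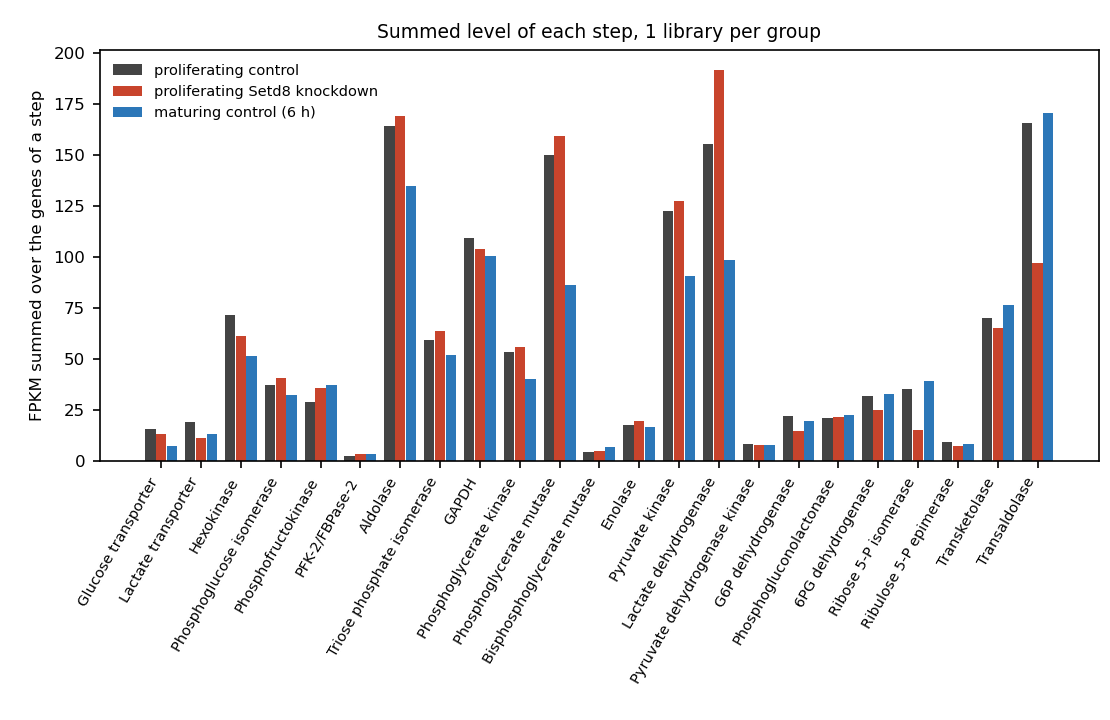
FPKM summed over the genes of each step (bars from 0) in 3 libraries, 1 per group. Transaldolase and ribose 5-phosphate isomerase are lowest in the knockdown, while phosphoglycerate mutase, pyruvate kinase and lactate dehydrogenase are lowest in the maturing control.

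The table also sets the knockdown directly against the maturing control, a pair that differs in hairpin and in medium and shares a library with each comparison above. The rows held for this comparison cover 19067 of the 23234 genes and end, in alphabetical order, at Slc2a13, so Slc2a3, Tpi1, Tkt and Taldo1 were not used here. Of the other 33 genes, 31 were tested, and 6 were called (19.4%), against 11.6% of the 9241 genes tested among the rows held (7.22% higher and 4.38% lower). Slc2a1 and Eno2 were higher in the knockdown, with log2 ratios of 2.61 (q 2.56e-05) and 1.70 (q 0.0290) in the authors' deposited table. Lower there were Slc16a3 at -5.62 (q 8.26e-12), Pklr at -2.61 (q 1.51e-06), Aldoc at -2.52 (q 2.30e-04) and Rpia at -1.39 (q 0.0168), all from the authors' deposited table. Ldha, at 192 and 98.4 FPKM, had a log2 ratio of 0.96 (SE 0.39) and a q of 0.141 in the authors' deposited table and was not called.

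Genes around the pathway were examined in related lists. Among 33 other isozymes, transporters and side-branch enzymes, 22 were tested in the knockdown comparison, and 3 had a higher and 0 a lower call in the authors' deposited table, where 5.81% and 3.24% of all genes tested did. Slc2a6, a transporter of the glucose family, was at 0.0485 FPKM in the control, 4.48 in the knockdown and 0.0572 in the maturing control. Pfkfb4, a relative of Pfkfb3, was at 0.0749, 2.01 and 0.0892 FPKM. Galk1, the galactokinase gene, was at 4.69, 15.1 and 3.69 FPKM. In each of these the knockdown library alone was high, with log2 ratios of 6.53, 4.74 and 1.69 in the authors' deposited table. During maturation, Slc16a6, a member of the monocarboxylate transporter family, was the 1 gene called of 20 tested (1.75% of all genes tested were called), at 5.28 FPKM in the control and 12.9 in the maturing control. Of 11 pentose phosphate neighbours with a row, 10 were tested and 0 were called in either comparison by the Cuffdiff test of the authors' deposited table, nor did any pass at an unadjusted p below 0.05. The ribose phosphate kinase gene Prps1, which acts on the product of Rpia, was at 26.7, 18.8 and 22.7 FPKM, and its listed copy Prps1l3 at 21.9, 15.5 and 19.2 FPKM.

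Regulators of glycolytic genes and genes known to respond to the hypoxia factor HIF were examined as 2 further lists. Of 22 regulators tested in the knockdown comparison, 1 was called (9.05% of all genes tested were), Egln3, which encodes an oxygen-sensing prolyl hydroxylase. It was at 0.818 FPKM in the control, 6.66 in the knockdown and 0.294 in the maturing control, with a log2 ratio of 3.03 (SE 0.51) and a q of 2.13e-07 in the authors' deposited table. Hif1a, at 7.25, 10.6 and 4.74 FPKM, and Myc, at 45.5, 28.4 and 28.6 FPKM, were not called in either comparison and are named after their values were seen. The HIF-responsive list has 24 genes, 5 of which are members described above. The list is not complete, and absence from it does not mean that a gene does not respond to HIF. The members called lower in the knockdown (Slc16a3, Aldoc, Pklr and Rpia) are not on it, and whether these genes respond to HIF was not examined. The counts and medians of the list therefore hold only for the genes listed. Of the 21 tested in the knockdown comparison, 4 had a higher and 0 a lower call in the authors' deposited table, beside the same 5.81% and 3.24% of all genes tested. They were Pfkfb4, Egln3, Slc2a1 and the carbonic anhydrase gene Car9, which was at only 0.134 and 0.563 FPKM. The median log2 ratio of FPKM + 1 over the 17 measured genes of the list was 0.17, against -0.05 over all measured genes. In the maturation comparison 1 gene of 19 tested was called, beside 1.75% of all genes tested. It was Ddit4, a stress-induced inhibitor of mTOR signalling, at 17.3 FPKM in the control and 6.36 in the maturing control. The median of the list was then -0.26, against 0.01 over all measured genes.

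**Figure D5:**
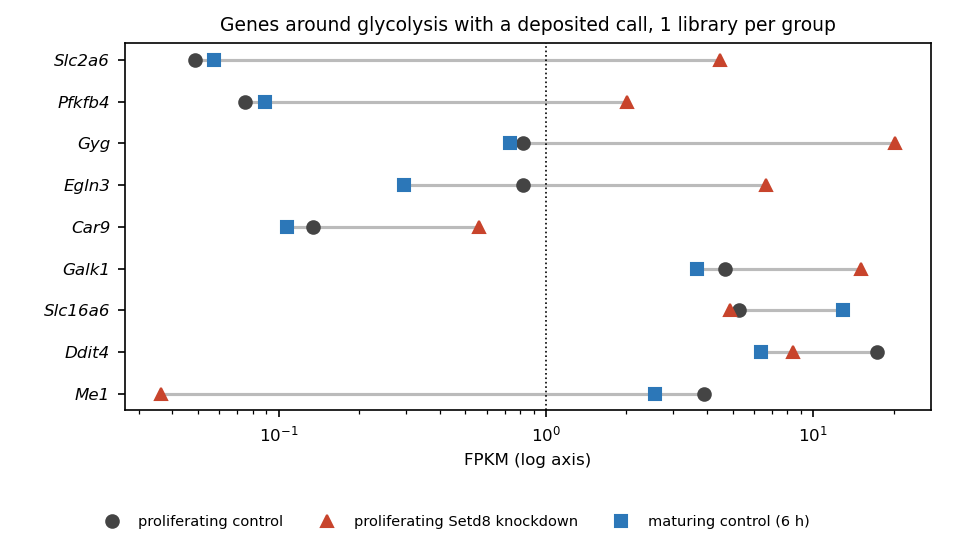
FPKM (log axis) in 3 libraries, 1 per group, of the 9 genes outside the 37 that were called in the knockdown or the maturation comparison among the related lists. Slc2a6, Pfkfb4, Gyg and Egln3 are high in the knockdown, and Me1 is near 0 there.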

How the data were processed

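RNA sequencing of mouse erythroblasts was described in 4 samples, 1 per group. The submitters' processing notes list FastQC 0.10.1, the mm9 genome, Cuffdiff and Cufflinks 2.0.2. Aligner and annotation were not given in the sources used here. One table of 65535 rows holds 3 comparisons in Cuffdiff's layout, per the file headers. The authors deposited the FPKM of both libraries compared. They deposited the log2 ratio and test statistic as well, read here as scores because infinite ratios stand as very large numbers. Each p-value and q-value is from the authors' Cuffdiff test, per the file headers. The deposited FPKM values keep no absolute depth, and the scaling between libraries is not stated. The most common ratio between libraries among genes below 0.03 FPKM, where 1 fragment sets the value, put the knockdown at 1.44 times and the maturing control at 1.55 times the depth of the control (19.1% and 12.3% of such genes shared that ratio). Library names were matched to samples by title. The name of the knockdown library matches by its target and number, although its title begins like those of the controls.

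No test was run, because each group had 1 library, and calls were taken from the deposited table (q of at most 0.05). The size of the deposited log2 ratio divided by that of its statistic gave the SE. The statistic had the opposite sign to the log2 ratio in 11493 of 11665 tested rows of the knockdown comparison. Rows with infinite ratios are among the rest, and their signs were not compared. Directions were therefore taken from the FPKM, from which the deposited log2 ratios follow. Sizes were also taken on the log2(FPKM + 1) scale, where changes of low genes come out too small. Measured means that any library reached 1 FPKM. The members and gene lists were chosen with earlier results of these data known. All 37 members are named. From each related list up to 4 called genes are named, or the 2 most abundant where none was called. Hkdc1, Hif1a and Myc are named besides these. Promoters came from a RefSeq table (GRCm38.p6), and Pkm2 was found there as Pkm. Alternatives were stricter calls, other filters, pseudocounts of 0.1 and 5, the mean, and 4 other scalings (centring on abundant genes, equal upper quartile, TPM, and equal sum without globin genes). Scaling and adjustment were tested on simulated data. Python 3.11.15, numpy 2.4.6, pandas 2.3.3, scipy 1.17.1 and matplotlib 3.10.9 were used.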

Additional observations from a re-analysis of the deposited data

How the results depend on the processing

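Of the 5 members called in the knockdown, 3 (Slc16a3, Aldoc and Pklr) had a q under 0.01, and 3 (Slc2a1, Pklr and Rpia) were at 5 FPKM or more in a library. In the direct comparison of knockdown and maturing control, 3 of 6 called members were at 5 FPKM or more. Adjusting p over genes at 1 FPKM or more in either library left 4 of the 5, without Rpia (q 0.0596), and 4 of the 6 in the direct comparison, where Aldoc and Eno2 were then outside the genes adjusted. All other alternatives left these counts within 1.5 times, and the count after maturation was 0 under each. The median log2 ratio of the members in the knockdown was 0.04 and the mean was -0.18, opposite in sign. The mean, unlike the median, weighs the size of the largest changes. The largest falls were Slc16a3 at -2.07 and Pklr at -1.78, and the largest rise was Slc2a1 at 1.22. The other 26 alternatives moved a median by less than 0.1. Leaving out members under 1 FPKM raised the Pfkfb2 share of the Pfkfb2 and Pfkfb3 sum to 100% in each library, since it left 1 gene. Before, that share was 98.4%, 96.7% and 98.1%. Pfkfb4, at 2.01 FPKM in the knockdown, is not a member and was not counted. The same filter raised the Eno1 share in the knockdown from 76.5% to 78.4%. Over 642 values of single members under other pseudocounts and scalings, no called member changed sign and 8 values of Gapdh, Slc16a1 and Pgls did. No paired analysis was possible because each group has 1 sample. Depth is unknown, so no counting interval is given, and values below 1 FPKM rest on few fragments.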

Other observations

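The mitochondrial side of pyruvate use was measured in 2 further lists. All 18 citrate cycle genes were measured and tested, and 0 were called in either comparison by the Cuffdiff test of the authors' deposited table, nor did any pass at an unadjusted p below 0.05. The most abundant were Cs, the citrate synthase gene, at 85.4 FPKM in the control, 75.4 in the knockdown and 84.6 in the maturing control, and Mdh2, a malate dehydrogenase gene, at 66.9, 58.4 and 62.1 FPKM. In the knockdown 14 of the 18 were below the control, where 55.6% of all measured genes were. Their median log2 ratio (FPKM + 1) was -0.14, against -0.05 over all measured genes. The other list held genes at the entry of pyruvate into mitochondria, together with malic enzyme genes. Of its 15 tested genes, 1 was called lower in the knockdown in the authors' deposited table, beside 3.24% of all genes tested. This was Me1, which is not an entry gene but encodes the cytosolic malic enzyme that makes NADPH. Its level was 3.90 FPKM in the control, 0.0365 in the knockdown and 2.55 in the maturing control.

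Among 21 genes of gluconeogenesis and glycogen, 16 were tested and Gyg, the glycogenin gene that primes glycogen, was the 1 gene called in the knockdown in the authors' deposited table, beside 9.05% of all genes tested. It was at 0.819 FPKM in the control, 20.1 in the knockdown and 0.737 in the maturing control, with a log2 ratio of 4.62 (SE 0.48). None of the 16 tested in the maturation comparison was called, and 0 passed at an unadjusted p below 0.05.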
